A study of Mus musculus with 6 samples.

Results

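A set of 6 immunoglobulin-superfamily genes for adhesion molecules at platelet contacts were followed: F11r, Esam, Jam3, Icam2, Cd47 and Cd84. They were chosen by gene symbol from their known function, with earlier results of these data known. All 6 were found among the 24346 symbols of the tables. RNA from mouse blood thrombocytes (platelets) was measured by sequencing in 3 wild-type libraries (WT) and 3 libraries from mice homozygous for a knock-in of the R734C change in integrin β3 (labelled Homo). Every platelet of the second group therefore carries β3 with the changed cytoplasmic tail, and no heterozygous, treated or rescued group was analysed. The labels used here give neither strain, age, sex nor the number of animals behind a library, and do not say whether the libraries of a group came from separate animals, so p-values measure the spread between libraries, which may be technical. The comparison asked how the mRNA of these molecules differed between the genotypes.

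Molecules of this superfamily carry extracellular immunoglobulin domains and bind copies of themselves or other partners on the neighbouring cell. When platelets aggregate and αIIbβ3 has bound fibrinogen, they gather at the contacts and pass signals into the cell. JAM-A, the product of F11r, is known to restrain outside-in signalling of αIIbβ3 by keeping the kinase Csk near the integrin. ESAM also limits thrombus growth, CD84 becomes phosphorylated on aggregation, and CD47 associates with β3 integrins and binds thrombospondin-1.

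The 6 genes lie on 4 chromosomes of GRCm38 (mm10), with coordinates from GENCODE M21. F11r spans 171437535 to 171464603 on chromosome 1, plus strand, and Cd84 spans 171839697 to 171890718 on the same strand, with the starts 402.2 kb apart. Esam lies on chromosome 9 at 37528078 to 37538319, plus strand. Jam3 lies on chromosome 9 at 27097384 to 27155421, minus strand. Icam2 lies on chromosome 11 at 106377656 to 106388075, minus strand. Cd47 lies on chromosome 16 at 49800533 to 49915010, plus strand. No annotated exon of another gene overlaps the exons of F11r, Esam, Icam2, Cd47 or Cd84. Exons of Jam3 overlap an antisense transcript, and the library kits do not mark strand.

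The 250 bases before the RefSeq start of F11r and of Cd84 are shown because these neighbours on chromosome 1 are the members with the lowest log2 fold changes in knock-in platelets. Capitals mark matches, on either strand, to 4 short motifs named after factor families of megakaryocytes. For the GATA family the letters searched were AGATAA, for the ETS family CGGAAG, for the RUNX family TGTGGT, and for the NF-E2 and AP-1 families TGAGTCA.
F11r, chr1:171437311-171437560, GRCm38.p6, plus strand: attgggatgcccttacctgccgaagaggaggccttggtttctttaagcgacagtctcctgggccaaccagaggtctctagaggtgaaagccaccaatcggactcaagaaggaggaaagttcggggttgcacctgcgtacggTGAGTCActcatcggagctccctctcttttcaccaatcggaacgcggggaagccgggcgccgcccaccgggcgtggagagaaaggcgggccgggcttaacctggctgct
Cd84, chr1:171839447-171839696, GRCm38.p6, plus strand: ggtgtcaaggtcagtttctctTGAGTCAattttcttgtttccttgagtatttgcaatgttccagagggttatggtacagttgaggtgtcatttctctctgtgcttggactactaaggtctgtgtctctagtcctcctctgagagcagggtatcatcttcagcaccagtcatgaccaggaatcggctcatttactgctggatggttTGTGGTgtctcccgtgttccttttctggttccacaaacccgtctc
Both windows hold TGAGTCA, and the Cd84 window also holds TGTGGT. The same window of Cd47, the member with the higher mean in the knock-in, holds CGGAAG and none of the other 3. It lies at chr16:49855404-49855653, inside the GENCODE span of Cd47, because the RefSeq start used differs from the GENCODE start. The last 26 bases of the F11r window likewise lie within the GENCODE gene. Over the 27025 genes in the RefSeq promoter table, TGAGTCA is in 4.43% of such windows, TGTGGT in 14.2%, CGGAAG in 13.8% and AGATAA in 10.3%. No RefSeq promoter window was available for Esam, Jam3 and Icam2, and F11r and Cd84 were picked by their fold changes. Lower and higher members therefore cannot be compared by motif. The motifs do not overlap one another here, and a match in these letters is a description only. No factor binding was measured.

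The values are FPKM, fragments relative to transcript length and library total, so levels can be set beside each other per length. Over the 6 libraries Cd47 was the most abundant member with a mean of 650 FPKM, followed by Esam with 408, Cd84 with 289 and F11r with 67.2. That order was the same in each of the 6 libraries, and the lowest value of each of the first 3 lay above the highest value of the next gene in any library. Among 12260 symbols above 0 in any library, Cd47 ranked 148 and F11r ranked 730. Icam2 and Jam3 stayed far lower, at 0.278 and 0.147 FPKM, and their values overlapped. Genes with a mean of at least 1 FPKM were tested, which left 4 members in the test and 2 outside it.

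**Figure D1:**
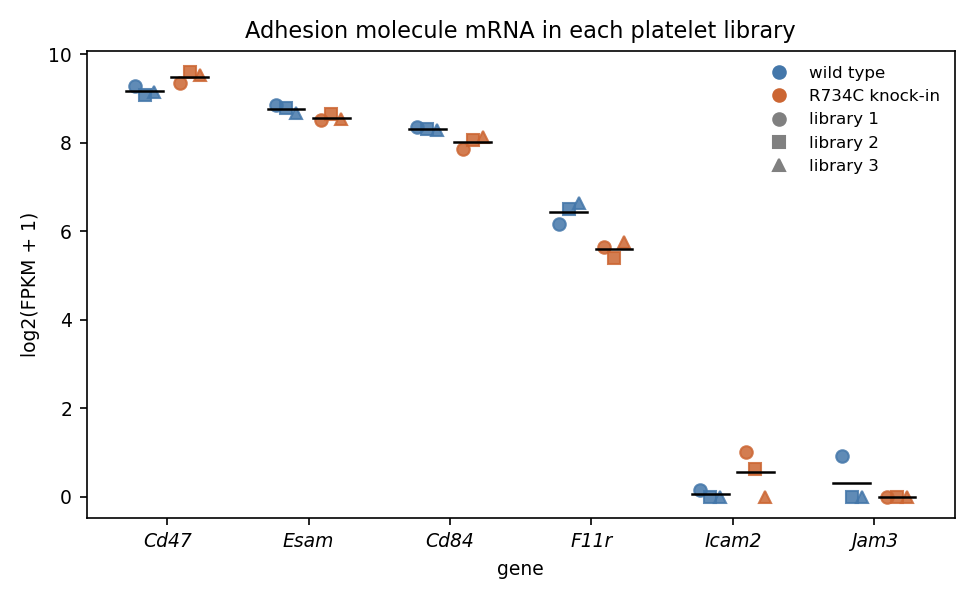
Level of each adhesion molecule gene as log2(FPKM + 1), with 1 point per library (wild type blue, R734C knock-in orange; circle, square and triangle for libraries 1, 2 and 3) and a bar at each group mean. The groups do not overlap for Cd47, Esam, Cd84 and F11r, while Icam2 and Jam3 lie near 0.

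F11r was the member whose mRNA passed the test, and it fell in knock-in platelets. Wild-type libraries 1, 2 and 3 gave 70.2, 90.2 and 99.1 FPKM, and knock-in libraries 1, 2 and 3 gave 49.3, 41.3 and 53.1 FPKM. The highest knock-in library lay below the lowest wild-type library. The wild-type mean was 86.5 ± 14.8 FPKM and the knock-in mean 47.9 ± 6.05 FPKM (SD, n = 3 each), with 3 of 3 knock-in libraries below the wild-type mean. The log2 fold change on the log2(FPKM + 1) scale was -0.83 (SE 0.16, 95% interval -1.2 to -0.47), a 1.78-fold fall (limma adjusted p = 0.0183). Of all tested genes, 6.73% had a larger absolute log2 fold change. By group mean F11r moved from rank 617 in the wild type to rank 881 in the knock-in.

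The F11r call rested on most of the libraries. When wild-type library 2 or 3 was left out, the limma adjusted p was 0.0819 or 0.0752, with log2 fold changes of -0.80 and -0.73. When knock-in library 2 or 3 was left out, it was 0.0745 or 0.0614, with log2 fold changes of -0.73 and -0.91. It was also lost with no filter on low values (limma adjusted p = 0.0740) and without a variance trend (0.0750).

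Cd84 encodes a receptor of the SLAM family, which binds itself across the contact. Its wild-type values were 327, 318 and 312 FPKM, against knock-in values of 231, 267 and 281 FPKM. All 3 knock-in values were below all 3 wild-type values, and knock-in library 1 was the lowest. The means were 319 ± 7.34 and 260 ± 25.9 FPKM (SD, n = 3). The log2 fold change of -0.30 (SE 0.10, 95% interval -0.53 to -0.07) did not pass after adjustment (limma adjusted p = 0.105).

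Esam encodes the endothelial cell-selective adhesion molecule, a homophilic junction protein that platelets share with endothelium. Its wild-type values were 461, 442 and 410 FPKM, against knock-in values of 364, 401 and 371 FPKM. The groups did not overlap, but wild-type library 3 and knock-in library 2 were only narrowly apart. The means were 438 ± 25.7 and 378 ± 19.5 FPKM (SD, n = 3). The log2 fold change was -0.21 (SE 0.09, 95% interval -0.41 to 0.00) and did not pass (limma adjusted p = 0.187).

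Cd47 encodes the integrin-associated protein, which is also known as a signal against uptake of blood cells by phagocytes. Unlike the 3 genes above, it had the higher mean in the knock-in. Its wild-type values were 620, 541 and 569 FPKM, against knock-in values of 650, 777 and 744 FPKM. The lowest knock-in value, in library 1, lay just above the highest wild-type value, also in library 1. The means were 577 ± 39.9 and 724 ± 65.9 FPKM (SD, n = 3). The log2 fold change of 0.33 (SE 0.10, 95% interval 0.10 to 0.55) did not pass (limma adjusted p = 0.0829). Without knock-in library 1 it was 0.40 and passed (adjusted p = 0.0240), and without library 1 of both groups, an alternative chosen after seeing the data, it was 0.45 (0.00528).

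Icam2 encodes a ligand of the leukocyte integrin LFA-1, and Jam3 encodes JAM-C, a counter-receptor of the integrin Mac-1. Icam2 was listed at 0.111 FPKM in wild-type library 1 and at 0 in libraries 2 and 3, and at 1.0, 0.552 and 0 FPKM in knock-in libraries 1, 2 and 3. Jam3 was listed at 0.882 FPKM in wild-type library 1 and at 0 in the other 5 libraries. Tbp and Hprt, genes that cells in general use, were each also listed at 0 in 1 library, so a listed 0 is given only as listed. Neither gene entered the test. With no filter on low values, their limma adjusted p was 0.498 for Icam2 and 0.683 for Jam3.

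Of the 4 tested members 1 fell and 0 rose, where 8.36% of 4859 tested genes were called, 3.99% lower and 4.36% higher. The members' groups did not overlap in 4 of 4 tested genes, 3 lower and 1 higher in the knock-in. Over all tested genes 30.7% did not overlap, 15.8% lower and 14.9% higher. All 4 had an unadjusted limma p under 0.05, against 25.4% of tested genes. The members are abundant, with 3.03% (Cd47) to 15% (F11r) of tested genes above them, and abundant genes were called more often. At a mean of at least 5 FPKM, 253 of 2750 genes were called lower and 258 higher. At an unadjusted limma p under 0.05 these were 495 and 466. The share of non-overlap at that level was not computed. The median log2 fold change over all tested genes was -0.014. The members were chosen with earlier results of these data known, so these counts are descriptions. With RNA from whole platelet samples, fewer platelets of a type and less RNA per platelet cannot be told apart.

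**Figure D2:**
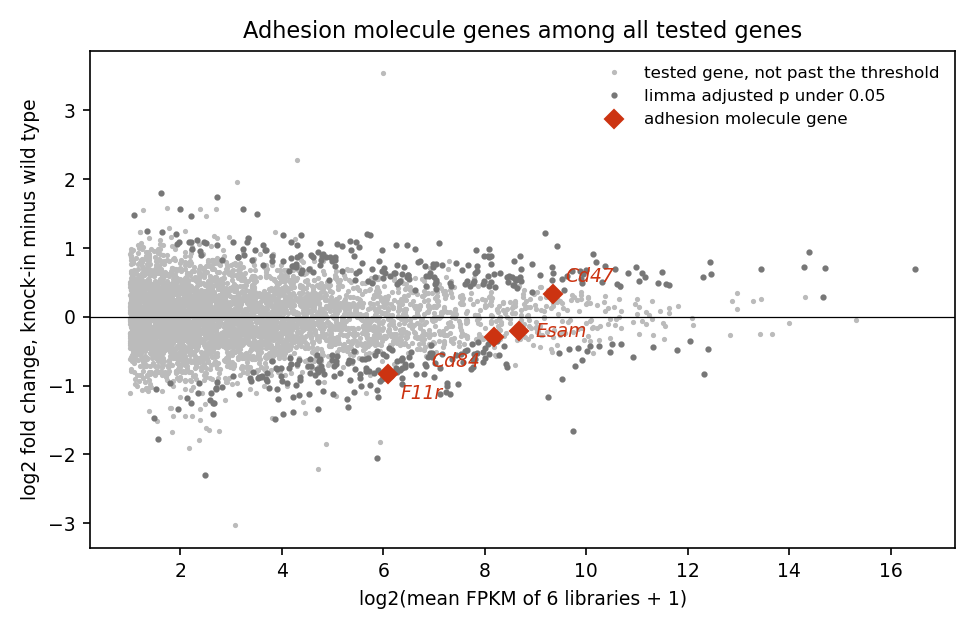
Log2 fold change (knock-in minus wild type) against log2(mean FPKM + 1) for the 4859 tested genes, 1 point each, with genes past the limma threshold in dark grey and the tested adhesion molecule genes in red. F11r lies at -0.83, Cd84 at -0.30, Esam at -0.21 and Cd47 at 0.33.

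Because F11r and the other members were read in the same libraries, their proportions can be set beside each other without any scaling between libraries. For each unit of F11r FPKM, wild-type libraries 1, 2 and 3 held 8.83, 6.0 and 5.74 units of Cd47, and the knock-in libraries held 13.2, 18.8 and 14.0. The Cd47 to F11r proportion thus averaged 6.86 ± 1.71 over wild-type and 15.3 ± 3.05 over knock-in libraries (SD, n = 3). For Esam the wild-type libraries held 6.56, 4.90 and 4.14 units and the knock-in libraries 7.39, 9.71 and 6.98. For Cd84 the wild-type libraries held 4.65, 3.53 and 3.15 units and the knock-in libraries 4.69, 6.47 and 5.30. The groups did not overlap for any of the 3 proportions, although Cd84 in library 1 of both groups was nearly the same. All 3 proportions share the F11r values, so they are not separate observations and partly restate the fall of F11r. F11r alone separated the groups, and no share of non-overlap was computed for other genes set against it. The separation is therefore not a result about Cd47, Esam or Cd84.

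The log2 ratio of F11r to the other member was lower in the knock-in by group mean, with differences of -1.17 against Cd47, -0.64 against Esam and -0.55 against Cd84. Each of the 3 had an exact two-sided permutation p = 0.1, also after Benjamini-Hochberg adjustment over the 3, which is the smallest value that 3 against 3 libraries allow. This test could not reach the 0.05 threshold at this number of libraries, so it does not settle whether F11r changed more than the other members. Jam3 and Icam2 were listed at 0 in some libraries and gave no ratio.

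**Figure D3:**
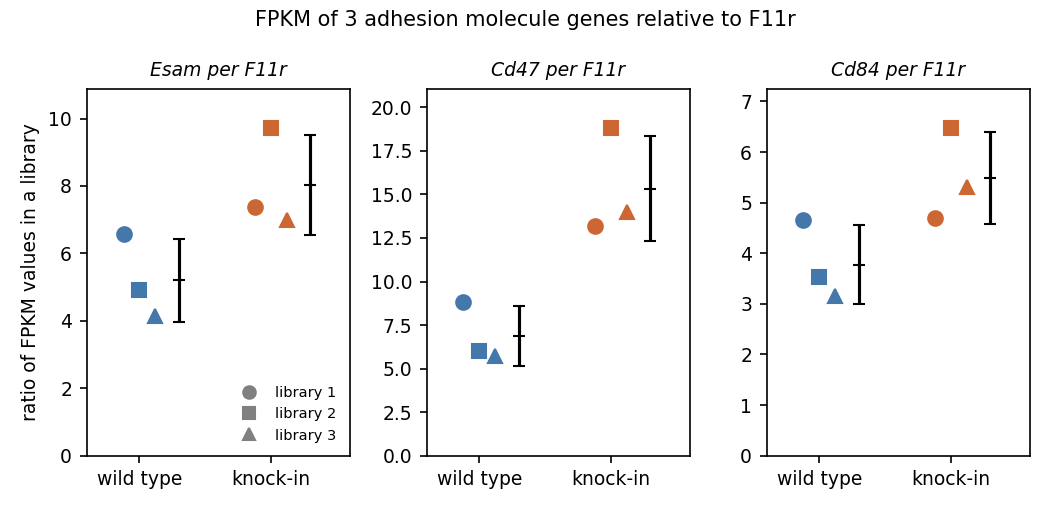
FPKM of Esam, Cd47 and Cd84 divided by the FPKM of F11r in the same library (circle, square and triangle for libraries 1, 2 and 3; bars show mean ± SD, n = 3). The proportion for Cd47 averages 6.86 for wild-type and 15.3 for knock-in libraries.

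The members' changes kept their sign under all 19 alternative settings that were run. The log2 fold change of F11r ranged from -1.0 to -0.73 and passed in 13 of the 19. That of Cd47 ranged from 0.27 to 0.45 and passed in 4. Cd84 (-0.40 to -0.20) and Esam (-0.32 to -0.14) passed in 0 of 19, with lowest limma adjusted p of 0.0568 and 0.0816.

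**Figure D4:**
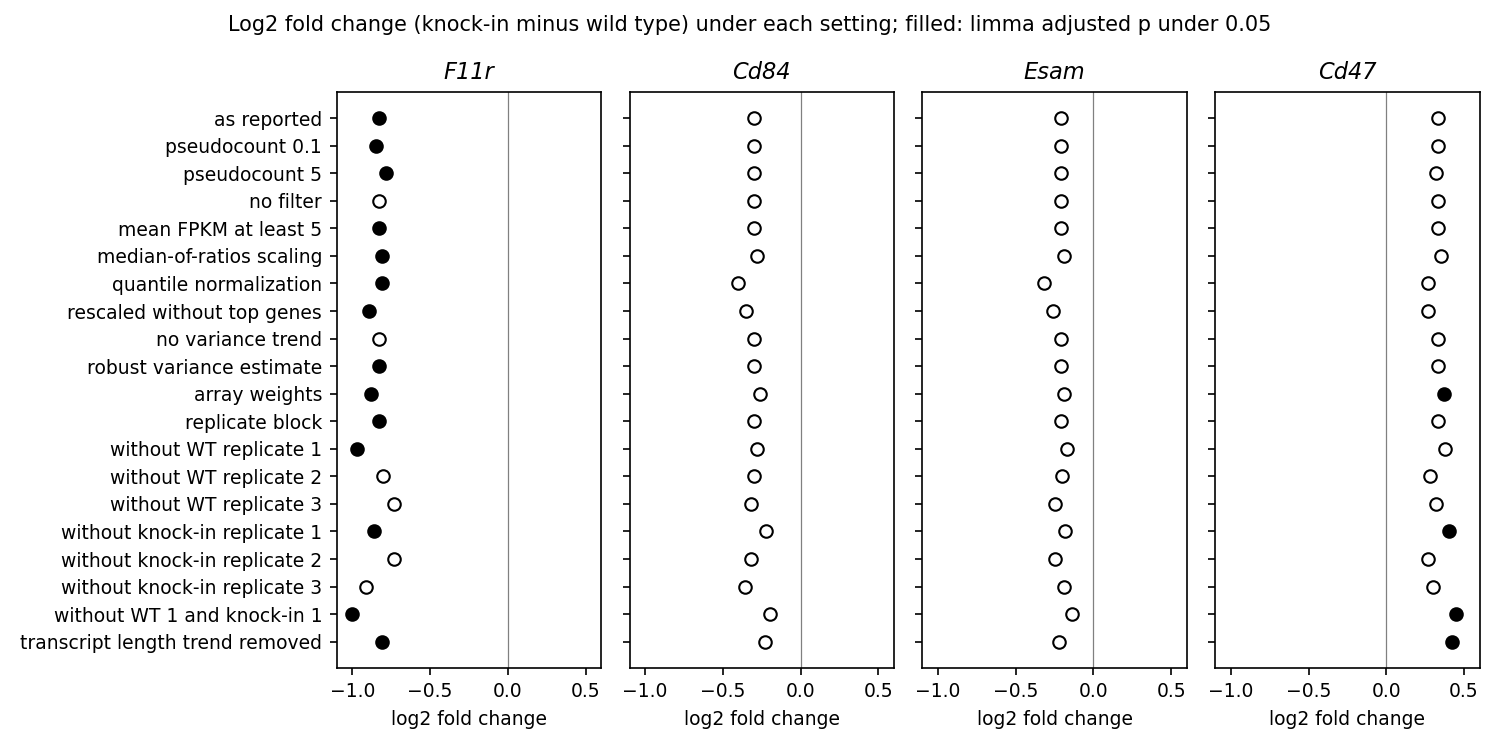
Log2 fold change of the 4 tested members (knock-in minus wild type) as reported and under each of 19 alternative settings, with filled points where the limma adjusted p is under 0.05. F11r is filled as reported and in 13 alternatives, Cd47 in 4, and Cd84 and Esam in none.

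The libraries were checked for RNA of other blood and vessel cells, since red cells carry CD47, leukocytes carry CD84, ICAM-2 and CD47, and endothelium carries ESAM, JAM-A and ICAM-2. The 6 platelet markers, among them Itga2b and Pf4, summed to 41700 to 44600 FPKM over wild-type and 41500 to 46900 FPKM over knock-in libraries. Within that sum the groups did not overlap for 4 of the 6, where 30.7% of all tested genes did not overlap. Pf4 (means 18100 and 22200 FPKM) and Gp9 (3370 and 3770) had the higher mean in the knock-in. Ppbp (14200 and 11900) and Gp6 (607 and 508) had the lower, and 0 of the 6 passed in limma. The 8 endothelial markers summed to 37.2 to 44.2 and 44.1 to 48.1 FPKM, mostly from Plvap. The endothelial cadherin gene Cdh5 was listed at 0 in all wild-type libraries and at 0.125, 0.0274 and 0 FPKM in knock-in libraries 1, 2 and 3. The claudin gene Cldn5, singled out after its values were seen, was listed at 0.257, 0 and 0 FPKM in the wild type and at 0.388, 0.513 and 1.14 FPKM in the knock-in. Of the 4 endothelial markers tested, 0 passed in limma. Kdr went from 5.33, 3.55 and 3.10 FPKM in the wild type to 2.92, 2.81 and 3.01 FPKM, with no overlap. Plvap had means of 32.5 and 33.8 FPKM, Tie1 4.56 and 6.63, and Egfl7 0.711 and 1.65, all with overlap. The part of endothelial RNA in the members' values was not tested. The 5 neutrophil markers measured summed to at most 1.70 and 1.73 FPKM and the 5 B cell markers to at most 0.185 and 0.693. The 5 T and NK cell markers summed to 2.67 to 4.42 and 4.68 to 8.83 FPKM, nearly all from Nkg7, with Cd3e, Cd3d and Klrb1c at 0 throughout. The 6 monocyte and macrophage markers summed to 7030 to 8240 and 7210 to 9130 FPKM, nearly all from Lyz2. Haemoglobin mRNA took 5.71% to 12.8% of the FPKM total of wild-type and 3.20% to 20.4% of that of knock-in libraries, highest in library 1 of both groups. Among wild-type libraries, library 1 had the lowest F11r and the highest Cd47, Esam and Cd84. Among knock-in libraries, library 1 had the lowest Cd47, Esam and Cd84, while its F11r lay between the other two. Without library 1 of both groups the F11r log2 fold change was -1.0 (limma adjusted p = 0.00378), that of Cd84 was -0.20 (0.151) and that of Esam -0.14 (0.307). The part of red cell RNA in the members' values was otherwise not tested.

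By profile over the 6 libraries, the genes most like F11r were Pdcd10, a partner of STRIPAK and CCM complexes, and Prkcq, which encodes protein kinase C theta. Likeness was the root mean square difference of centred log2 values over 6 libraries, 0.072 for Pdcd10 and 0.081 for Prkcq, among 2015 genes with a mean of at least 10 FPKM. Pdcd10 averaged 97.6 ± 18 FPKM over wild-type and 54.8 ± 4.01 over knock-in libraries, and Prkcq 268 ± 63.5 and 156 ± 21.2 (SD, n = 3). The genes most like Cd47 were Myl12b (0.024), a myosin regulatory light chain gene, and Skp1a (0.035), for a ubiquitin ligase subunit. Those most like Cd84 were Fyb (0.048), the gene of the adaptor ADAP, and Clic4 (0.050). Those most like Esam were Cysltr2 (0.036), a leukotriene receptor gene, and Rp2h (0.046). These are descriptions of 6 libraries, in which both groups weigh on the profile.

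On chromosome 1, 35 protein-coding genes of the tables start within 500 kb of F11r, a window chosen after the values were seen. Of these, 22 had a mean under 1 FPKM, and 13 were tested, of which F11r fell and Fcer1g rose. Over all 4859 tested genes 8.36% were called, and F11r is the gene on which the window was centred. Fcer1g is the Fc receptor gamma chain gene, and its start lies at -203.2 kb from that of F11r. Fcer1g gave wild-type values of 1354, 1345 and 1406 FPKM and knock-in values of 1685, 2085 and 1833 FPKM. Slamf1, the SLAM family gene next to Cd84, gave wild-type values of 232, 236 and 233 FPKM and knock-in values of 232, 210 and 236 FPKM (log2 fold change -0.05, limma adjusted p = 0.779). In the SLAM receptor cluster of this region Cd84 and Slamf1 had a mean above 1 FPKM, and Cd244, Cd48, Ly9, Slamf6 and Slamf7 were below it. The median log2 fold change of the 13 tested genes in the window was -0.05.

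The partners and relatives were taken from 6 lists, which hold 118 distinct genes of the tables, and 34 of these reached a mean of 1 FPKM. Of the 34, 6 fell and 0 rose, that is 17.6% lower where 3.99% of all tested genes fell. The lists were chosen with earlier results of these data known. They include Itgb3 and Thbs1, which had been reported as lower, so the share is a description.

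Of 37 other immunoglobulin-superfamily adhesion genes, 31 had a mean under 1 FPKM and 15 were listed at 0 in every library. Of 6 tested, 1 fell and 0 rose, with a median log2 fold change of 0.19 beside -0.01 over all tested genes. It was Pecam1, the gene of PECAM-1, an inhibitory receptor that binds itself. Pecam1 went from 264, 251 and 271 FPKM to 205, 204 and 201 FPKM (log2 fold change -0.36, SE 0.09, limma adjusted p = 0.0363), with no overlap. That call passed in 10 of 19 alternatives. The most abundant gene of the list, Treml1, which encodes the alpha granule receptor TLT-1, had means of 1580 ± 48 and 1460 ± 96.6 FPKM (SD, n = 3), which missed the threshold (limma adjusted p = 0.437). Cd226, for an activating receptor and named after its values were seen, gave wild-type values of 584, 403 and 409 FPKM and knock-in values of 568, 663 and 625 FPKM (limma adjusted p = 0.113).

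Of 12 SLAM receptors and adaptors besides Cd84, 2 were tested, 1 fell and 0 rose, with a median of -0.28. Fyn, a Src family kinase that signals below SLAM receptors, fell from 67.2, 69.3 and 67.4 FPKM to 42.6, 48.1 and 52.9 FPKM (log2 fold change -0.50, limma adjusted p = 0.0381), passing in 7 of 19 alternatives. The SLAM adaptor genes Sh2d1a, Sh2d1b1 and Sh2d1b2 were listed at 0 in every library.

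Among the 20 junction scaffold and polarity genes reported here, Csk, Pard6a and Rapgef6 were tested and none of them passed in limma (unadjusted p = 0.073, 0.384 and 0.743), with a median of 0.10. Tjp1, for ZO-1, a known binding partner of JAM-A in epithelia, stayed under 1 FPKM in all libraries. Csk, the kinase kept near the integrin by JAM-A, averaged 11.7 ± 2.38 FPKM over wild-type and 15.4 ± 1.25 over knock-in libraries (SD, n = 3), which missed the threshold (limma adjusted p = 0.245). Its groups did not overlap, with a highest wild-type value of 13.3 and a lowest knock-in value of 14.0 FPKM. Of all tested genes 30.7% did not overlap.

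Of 14 integrin ligands and counter-receptors matched, 7 were tested, 2 fell and 0 rose, with a median of -0.23. Thbs1, for thrombospondin-1, the secreted ligand of CD47, fell from 1106, 1298 and 1478 FPKM to 541, 310 and 406 FPKM (log2 fold change -1.65, SE 0.19, limma adjusted p = 0.00759). Itgb3, from 1091, 1244 and 1289 FPKM to 870, 803 and 903 FPKM, fell by 0.49 on the log2 scale (limma adjusted p = 0.0190), and Itga2b did not pass (limma adjusted p = 0.412). The JAM-A and ICAM-2 partner genes Itgal and Itgb2 had adjusted p-values of 0.548 and 0.192 in limma, and the CD47 receptor gene Sirpa stayed under 0.1 FPKM. R734C alters the coding sequence and not a transcript's presence, so these values do not test the genotype labels.

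Of 15 genes for membrane-cytoskeleton linkers and CD47 signalling, 12 were tested, 1 fell and 0 rose, with a median of -0.17. Actn4, for an alpha-actinin that links ICAM tails to actin, fell from a mean of 337 ± 16.6 FPKM to one of 265 ± 11.9 FPKM (SD, n = 3). Its log2 fold change of -0.35 lay close to the threshold (limma adjusted p = 0.0487). Gnas, the most abundant, had means of 2340 ± 282 and 2720 ± 152 FPKM (SD, n = 3), which missed the threshold (limma adjusted p = 0.221). Of 20 shedding protease and contact signal genes, 4 were tested, 1 fell and 0 rose, with a median of -0.24. Adam10, a protease that sheds adhesion receptors, fell from 72.5, 75.1 and 86.2 FPKM to 49.5, 48.7 and 59.3 FPKM (log2 fold change -0.56, limma adjusted p = 0.0336). Ceacam1, an inhibitory adhesion receptor gene and the most abundant of that list, had means of 72.7 ± 5.08 and 87.3 ± 3.03 FPKM (SD, n = 3), which missed the threshold (limma adjusted p = 0.167). With single libraries left out, the 6 falls over the 6 lists became 3 (wild-type library 1), 1 (wild-type library 2 or 3, or knock-in library 2), 5 (knock-in library 1) or 0 (knock-in library 3).

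**Figure D5:**
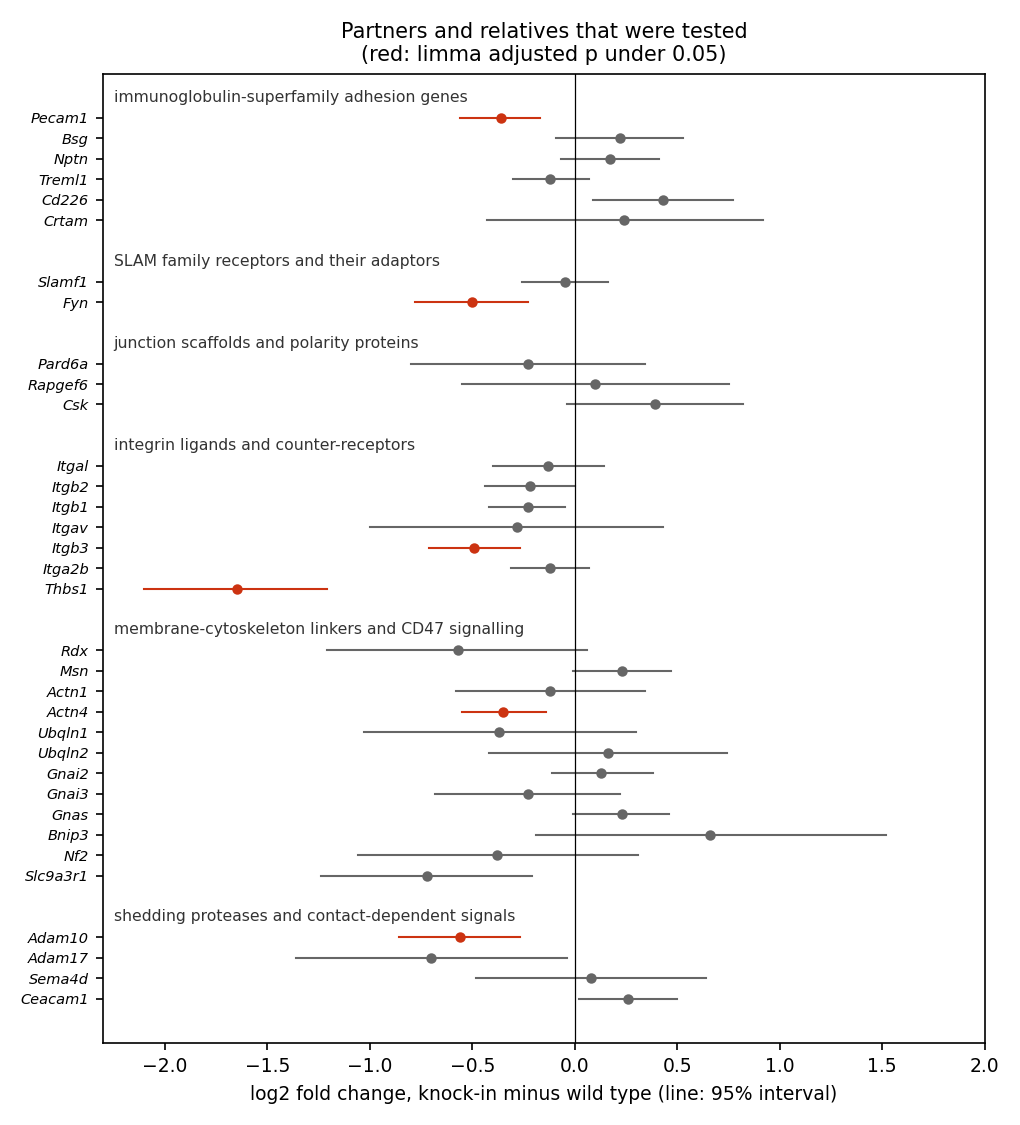
Log2 fold change (knock-in minus wild type, point) with its 95% interval (line) for the 34 tested genes of the 6 lists, red where the limma adjusted p is under 0.05. The red points are Pecam1, Fyn, Itgb3, Thbs1, Actn4 and Adam10, all left of 0.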

How the data were processed

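The authors deposited 1 table of FPKM per gene symbol for each of 6 libraries, per the file headers. The submitters' processing notes name Cuffdiff 2.2.1, TopHat2 2.1.1, SAMtools 0.1.18 and Bowtie2 2.2.8, with build mm10; settings and gene annotation are not given in the sources used here. Per the labels' protocols, SMART-Seq HT cDNA and Nextera XT libraries were made, which do not mark strand. Read depth is unknown from these values, so no counting interval was given. FPKM totals were 708432, 641278 and 644227 in wild-type libraries 1, 2 and 3, and 856863, 758381 and 780235 in knock-in libraries 1, 2 and 3. Every knock-in total thus lay above every wild-type total, and the values were used without further scaling. Without erythroid genes and the 20 most abundant genes, the relative totals were 0.972 to 0.987 for wild-type and 1.01 to 1.03 for knock-in libraries. Scaling to equal FPKM totals of all genes was not run.

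Genes with a mean of at least 1 FPKM were tested on log2(FPKM + 1) with limma 3.58.1 (R 4.3.3), group as the only term, with a variance trend, two-sided, and Benjamini-Hochberg adjustment over 4859 genes (threshold 0.05). The log2(FPKM + 1) scale understates changes of low genes. The fit was tested on simulated data. The members and lists were chosen with earlier results of these data known. Named genes were the members, each list's most abundant gene and up to 4 called genes with the largest change, and 2 nearest profiles per member. Unmatched symbols were left out, and 1 gene of the junction scaffold list is not reported here and enters no count over the lists. Alternatives covered pseudocount, filter, scaling, variance model, weights, replicate number and left-out libraries; leaving out library 1 of both groups and removing a transcript length trend (over 4826 genes) were added after seeing the data.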

Additional observations from a re-analysis of the deposited data

How the results depend on the processing

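Read depth is unknown and there are 3 libraries a group, which limits what can be called. F11r had a log2 fold change of -0.83 but did not pass with no filter (limma adjusted p = 0.0740) or without the variance trend (0.0750), where 0 members were lower. Cd47 passed as the 1 higher member with array weights (0.37), with the transcript length trend removed (0.42) and without the libraries richest in haemoglobin (0.45). Leaving out 1 library in turn gave 0 to 1 members lower and 0 to 1 higher, with ranges of -0.97 to -0.73 for F11r and 0.27 to 0.40 for Cd47. Over all genes it gave 0 to 303 lower and 0 to 307 higher, beside 194 and 212. Over the 34 partner genes it gave 0 to 5 lower and 0 to 1 higher, beside 6 and 0. With no filter 58 genes were lower and 49 higher, with 1 partner lower. Without the variance trend 0 passed either way (603 lower and 594 higher at an unadjusted limma p under 0.05) and 0 partners. With array weights 322 genes were higher, and 1 partner. Without library 1 of both groups 366 were lower and 362 higher, with 1 partner higher. With the length trend removed 2 partners were lower. Without knock-in library 3, 0 genes passed in limma (507 lower and 487 higher at an unadjusted p under 0.05). The cause of these shifts was not tested. Slamf1, at -0.05, ranged from -0.08 to 0.00 with 1 library left out, reaching 0.00 without knock-in library 2, and turned to 0.04 with the length trend removed. For the other 20 named genes, 304 of 380 values stayed on their side of the threshold, 61 lost it, 13 gained it and 2 changed sign, both of Slamf1. Only genes called as reported could lose it. Of 19 alternatives, Thbs1 passed in 17, Itgb3 and Pdcd10 in 13, Prkcq in 12 and Adam10 in 11. Pecam1 passed in 10, Actn4 in 8 and Fyn in 7. Same-numbered libraries deviated together with correlations of 0.158, 0.0235 and 0.141 across genes. Libraries 1 and 3 matched their own number best in the other group, and library 2 did not. The fit as reported held group only, and whether the numbers pair libraries was not settled. With the replicate block F11r stayed at -0.83 (limma adjusted p = 0.0241) and 3 partners were lower. The proportions of F11r to Esam, Cd47 and Cd84 kept their direction under every alternative run.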

Other observations

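Outside the test, Bcam, which encodes the laminin-binding immunoglobulin-superfamily protein Lutheran and was named after its values were seen, had a mean under 1 FPKM. Its wild-type values were 0.189, 0.268 and 0.185 FPKM and its knock-in values 0.642, 1.37 and 0.939 FPKM, which do not overlap. Bcam was picked from the 31 genes of its list under 1 FPKM, a level at which no share of non-overlap was computed. With no filter on low values its log2 fold change was 0.69 and did not pass (limma adjusted p = 0.261).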
